A study of Homo sapiens with 9 samples.

Results

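The mitochondrially encoded genes are the 37 genes of the mitochondrial chromosome, 13 mRNAs, 2 rRNAs and 22 tRNAs, and they were chosen as all symbols starting with MT- among the 58051 genes counted. Their RNA was measured in A431, a human line from an epidermoid carcinoma whose own p53 is mutant, by RNA-Seq of 3 libraries per group. A431 parental (mutp53) cells were unmodified, A431 Ctrl (mutp53) cells were a stable line made with an empty CRISPR vector and kept mutant p53, and A431 p53 KO cells carried a CRISPR construct against p53. The labels state that cells were grown up as single colonies and harvested 48 h after settling in plates, so a line may stand for 1 clone, and differences between clones and the p53 genotype cannot be told apart. The labels name no separate cultures, so p-values measure only the spread between these libraries, which may be technical.

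Mitochondrial DNA is a small circle transcribed from promoters in its non-coding control region into long RNAs that run through many genes. The tRNAs lie between most of the mRNAs and rRNAs, and cutting them out releases the other RNAs. The mRNAs encode subunits of respiratory complexes I, III and IV and of ATP synthase, the rRNAs form the mitochondrial ribosome, and all other proteins of these complexes are made from nuclear genes. Most mitochondrial mRNAs carry a poly(A) tail and the rRNAs a short one, while mature tRNAs end in CCA, so libraries selected for poly(A) RNA do not sample these classes alike. MT-ND6 and 8 of the tRNAs are encoded on the light strand, opposite to all the other genes on the heavy strand, and the mRNA of MT-ND6 is known to lack a poly(A) tail.

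The libraries held 19783778 to 29840452 gene counts each. The defining markers of leukocytes (PTPRC and CD3E) and the fibroblast genes LUM and DCN were at 0 in all libraries, of the other fibroblast genes COL1A1 held 47 to 114 counts and COL1A2 at most 1, PECAM1 and VWF of endothelial cells held at most 13 counts, and the epithelial genes EGFR, SFN, KRT5 and CDH1 were abundant in all groups, while KRT14 held at most 13 counts. Of the other epithelial markers, TP63 held 933 to 2616 counts and KRT17 229 to 434. KRT6A differed between groups, with 213 to 399 counts in the control libraries and 1567 to 2035 in the p53 KO libraries.

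Mitochondrial genes took 1.39%, 2.70% and 1.59% of all gene counts in the parental libraries, 1.17%, 0.814% and 1.16% in Ctrl and 1.49%, 2.08% and 1.29% in p53 KO libraries. The mean share was 1.90% ± 0.706 (SD, n = 3) in parental cells, 1.05% ± 0.205 in Ctrl cells and 1.62% ± 0.409 in p53 KO cells. All Ctrl libraries lay below all parental and p53 KO libraries, and the parental and p53 KO libraries overlapped. Counting error was far smaller than these differences: the 95% Wilson interval of the smallest share was 0.811% to 0.818%, and it covers counting error only. In bulk RNA, fewer mitochondrial genomes and less RNA per genome cannot be told apart, nor can changes in the rest of the RNA to which a share refers.

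The mRNAs held 78.9%, 82.0% and 77.4% of the mitochondrial counts in parental, 78.4%, 76.1% and 76.9% in Ctrl and 68.7%, 73.4% and 68.5% in p53 KO libraries. The rRNAs held most of the rest, 20.5% ± 2.36 in parental cells, 22.8% ± 1.17 in Ctrl cells and 29.7% ± 2.79 in p53 KO cells (SD, n = 3), and no p53 KO library overlapped with either control. The 22 tRNAs together held between 159 and 639 counts per library.

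**Figure D1:**
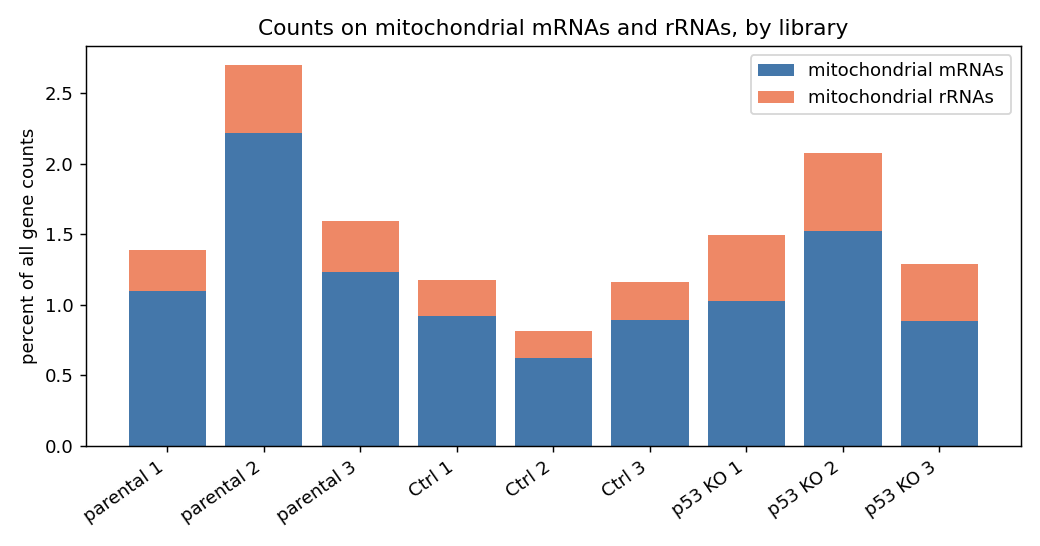
Percent of all gene counts on the 13 mitochondrial mRNAs (blue) and the 2 rRNAs (orange) in each library, as stacked bars. Parental replicate 2 reached 2.70% with tRNAs included and Ctrl replicate 2 had 0.814%, and the orange part took the largest proportion of the bar in the p53 KO libraries.

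Per length, the most abundant mitochondrial RNA in parental cells was MT-CO3, a subunit of complex IV (cytochrome c oxidase), at 3523 ± 717 CPM per kb (counts per 1000000 of normalised library size, divided by gene length; mean ± SD, n = 3). MT-CO1 and MT-CO2, the catalytic subunits of that complex, followed at 2447 ± 889 and 2387 ± 808 CPM per kb. MT-RNR2, the 16S rRNA of the large ribosomal subunit, was next at 2155 ± 560.3 CPM per kb. Per length, MT-CO3 was above these genes in each parental library. The SD is a spread between libraries that these genes share, so it does not measure differences between genes. MT-RNR1, the 12S rRNA of the small subunit, was at 439 ± 86.9 CPM per kb in parental cells, 272 ± 59.2 in Ctrl cells and 919 ± 98.2 in p53 KO cells. The least abundant mRNA was MT-ND6, a complex I subunit and the only light-strand mRNA, at 13.4 ± 3.99, 10.2 ± 3.82 and 15.4 ± 10.5 CPM per kb in parental, Ctrl and p53 KO cells, far below the next one, MT-ND5 of complex I, at 363 ± 222, 177 ± 29.2 and 234 ± 122.

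**Figure D2:**
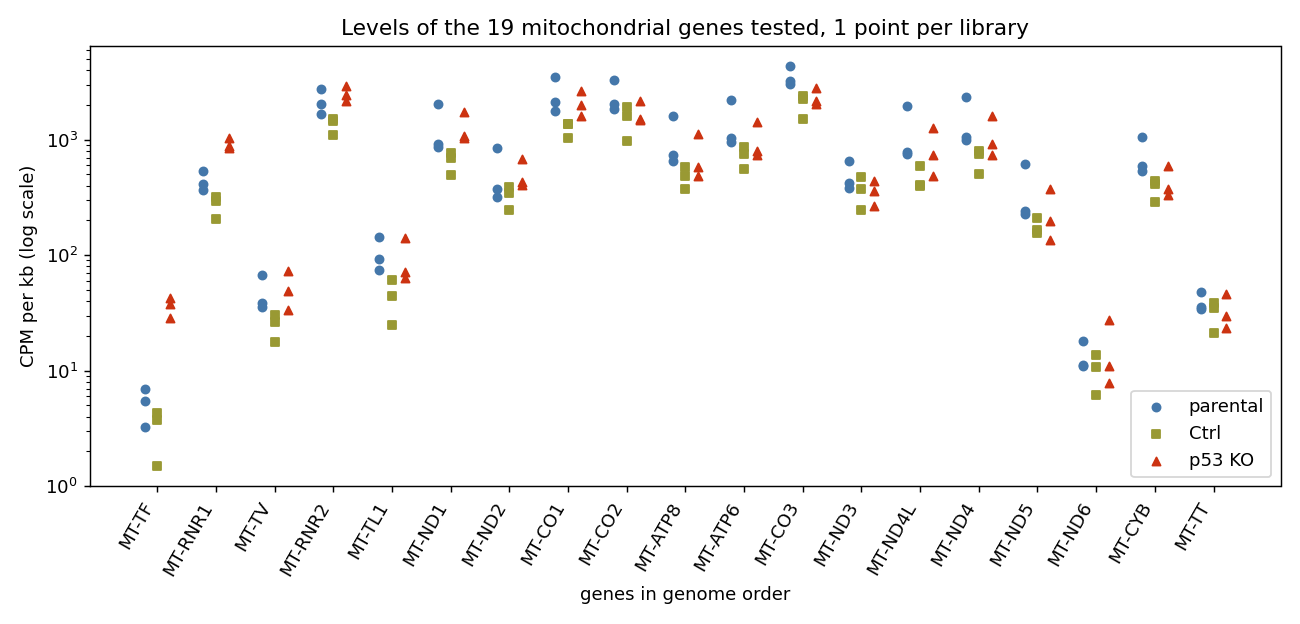
CPM per kb of gene length (log axis) of the 19 mitochondrial genes tested, in genome order, with 1 point per library (blue circles, parental; olive squares, Ctrl; red triangles, p53 KO). The p53 KO libraries lie above all control libraries at MT-TF and MT-RNR1, and MT-ND6 is the lowest mRNA in every group.

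Of the 37 genes, 19 passed the filter on low counts and were compared, all 13 mRNAs, both rRNAs and the tRNAs MT-TF, MT-TV, MT-TL1 and MT-TT. Genes were called at an adjusted p of at most 0.05 (edgeR's quasi-likelihood test, Benjamini-Hochberg over 14513 genes). Against parental cells, 2 mitochondrial genes were called in p53 KO cells, and both were higher, MT-TF and MT-RNR1. Of all genes tested in that comparison, 18.1% were called and 9.77% were called higher. Against Ctrl cells, 6 mitochondrial genes were called, all higher: MT-TF, MT-RNR1, MT-TV, MT-RNR2, MT-ND1 and MT-CO1. There, 29.2% of all genes were called and 15% were called higher. In Ctrl against parental cells, 8 mitochondrial genes were called, all lower (MT-RNR1, MT-RNR2, MT-TL1, MT-CO1, MT-CO3, MT-ND4L, MT-ND4 and MT-CYB), where 20.3% of all genes were called and 9.69% were called lower. Higher in p53 KO cells against both controls were MT-TF and MT-RNR1, 2 of 19, where 6.46% of all genes were. MT-TF entered the comparison only through the p53 KO libraries, where it was high, so its call is no support. With at least 10 counts in every library the count was 1 of 18, MT-RNR1, a share near that of all genes. The comparisons share libraries and are not independent of each other.

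The median log2 fold change over the 19 genes in p53 KO cells was -0.23 with parental and 0.63 with Ctrl cells as the reference, and in Ctrl cells it was -0.92 against parental cells, beside medians over all genes tested of 0.01, 0.01 and 0.00. Against parental cells, 6 of the 19 genes had a positive and 13 a negative log2 fold change in p53 KO cells.

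**Figure D3:**
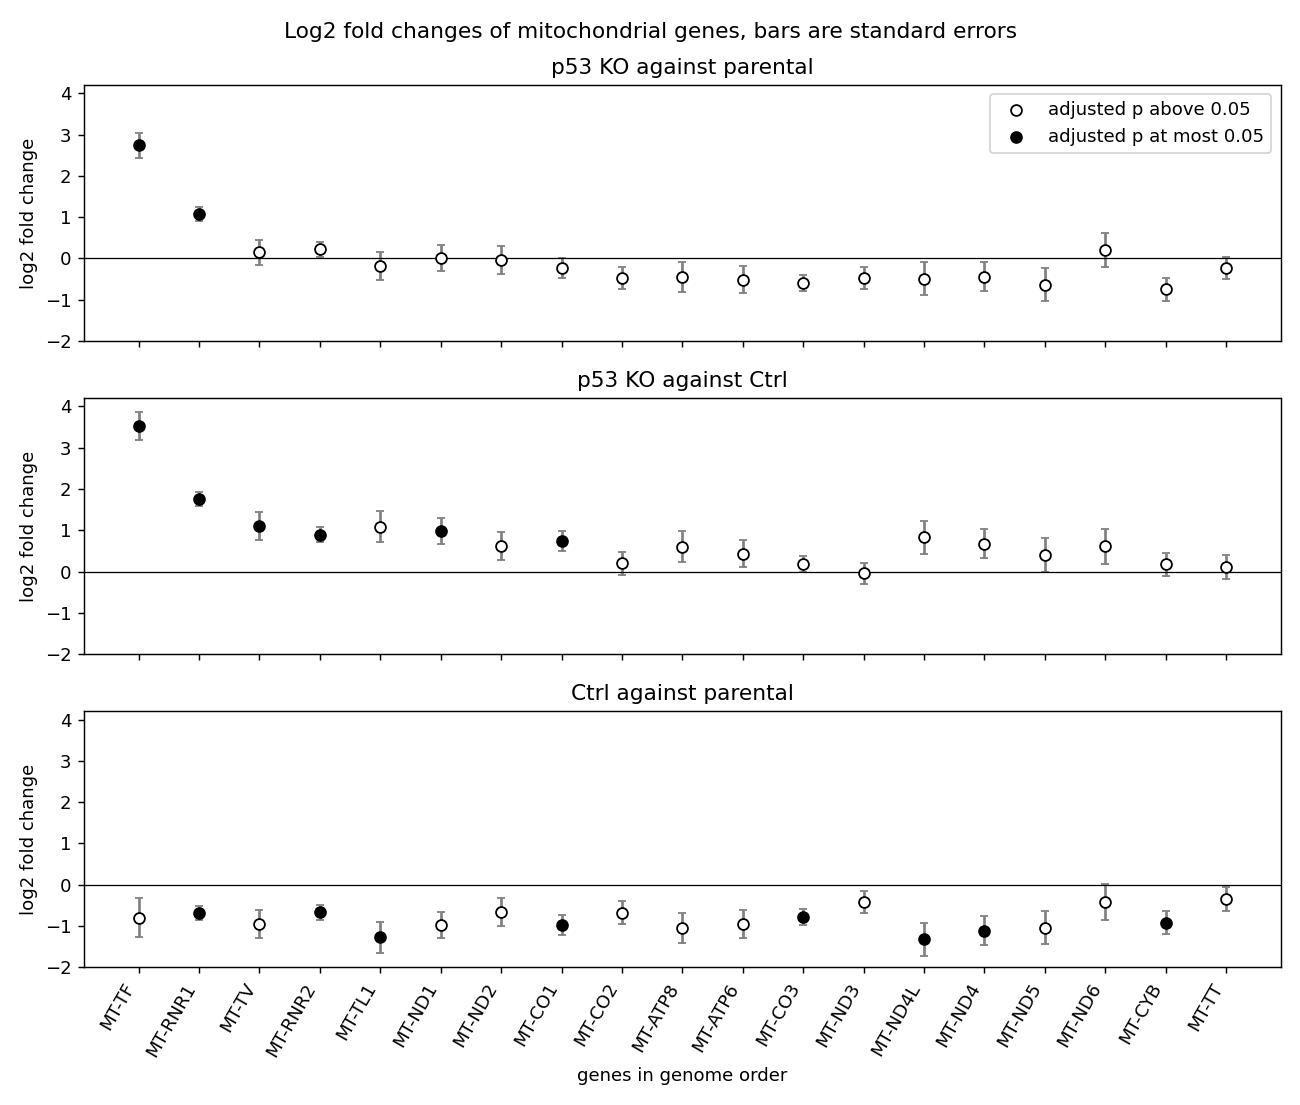
Log2 fold changes (points) with standard errors (bars) of the 19 mitochondrial genes tested, in genome order, in the 3 comparisons. Filled points have an adjusted p of at most 0.05. MT-TF and MT-RNR1 are filled and positive in both p53 KO comparisons, and all points are negative in Ctrl against parental cells. MT-TF passed the filter only through the p53 KO libraries, so its filled points are no support.

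MT-TF and MT-RNR1, the neighbouring genes that open the ribosomal region of the heavy strand, were higher in p53 KO cells against both controls. MT-TF encodes the tRNA for phenylalanine (ENSG00000210049, GRCh38 chrM:577-647, plus strand) and is followed without a gap by MT-RNR1 (ENSG00000211459, chrM:648-1601, plus strand). The first sequence is the tRNA gene with its anticodon in capitals, and the second is the boundary at chrM:633-662 with the first 15 bases of MT-RNR1 in capitals. Both are shown because the 2 genes that were higher against both controls meet there.
MT-TF: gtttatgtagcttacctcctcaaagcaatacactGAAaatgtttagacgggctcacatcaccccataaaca
MT-TF/MT-RNR1 boundary: atcaccccataaacaAATAGGTTTGGTCCT

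MT-RNR1 had 349, 511 and 396 CPM in the parental libraries, 303, 196 and 280.1 CPM in the Ctrl libraries and 845, 982 and 803 CPM in the p53 KO libraries. All p53 KO libraries were above all control libraries, and all Ctrl libraries were below all parental libraries. The log2 fold change was 1.07 (SE 0.17, adjusted p = 0.00156) against parental and 1.76 (SE 0.17, adjusted p = 3.43e-05) against Ctrl cells, a 2.09-fold and a 3.38-fold increase. In Ctrl against parental cells it was -0.69 (SE 0.17, adjusted p = 0.0176), and without parental replicate 2 it was -0.53 (adjusted p = 0.0694).

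MT-TF was counted 13, 10 and 5 times in the parental libraries, 6, 3 and 7 times in the Ctrl libraries and 60, 79 and 54 times in the p53 KO libraries, and these few counts limit its precision. In normalised units it had 0.497, 0.385 and 0.231 CPM in the parental libraries, 0.306, 0.105 and 0.267 CPM in the Ctrl libraries and 2.01, 3.00 and 2.68 CPM in the p53 KO libraries. It passed the filter only through the p53 KO libraries, so the differences of those libraries are given as a description, without a p-value. All p53 KO libraries were above all control libraries, and parental and Ctrl libraries overlapped. The log2 fold change was 2.74 (SE 0.30) against parental and 3.53 (SE 0.34) against Ctrl cells, and -0.79 (SE 0.48, adjusted p = 0.243) in Ctrl against parental cells. Without the filter on low counts, where MT-TF was tested for having any counts, edgeR called it higher against both controls. That fit called 13 and 14 mitochondrial genes against parental and Ctrl cells, in place of 2 and 6. Of all 27464 genes tested there, 1761 and 2566 were called higher, so this call of MT-TF is a description too. A read across the boundary holds bases of both genes, and how the counting assigned such reads is not given in the sources used here.

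Library size does not enter ratios between mitochondrial genes, but such ratios can vary with the mitochondrial share. Parental replicate 2 and p53 KO replicate 2 had the highest share of their groups. They had the lowest MT-RNR1 of their groups per 100 mitochondrial mRNA counts, 2.32 and 6.38. Of the Ctrl libraries, replicate 1 had the highest share and the highest value, 3.26. The ratios were chosen after the values were seen and are given as a description. Per 100 counts of MT-RNR2, MT-RNR1 had 13.5, 11.8 and 12.5 counts in parental, 13.5, 11.4 and 11.9 in Ctrl and 22.1, 21.4 and 24.0 in p53 KO libraries. The controls overlapped and the p53 KO libraries lay apart from both. Per 1000 counts of MT-RNR1, MT-TF had 1.42, 0.753 and 0.582 counts in parental, 1.01, 0.539 and 0.953 in Ctrl and 2.38, 3.06 and 3.34 in p53 KO libraries, so MT-TF was also higher in proportion to its neighbour.

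**Figure D4:**
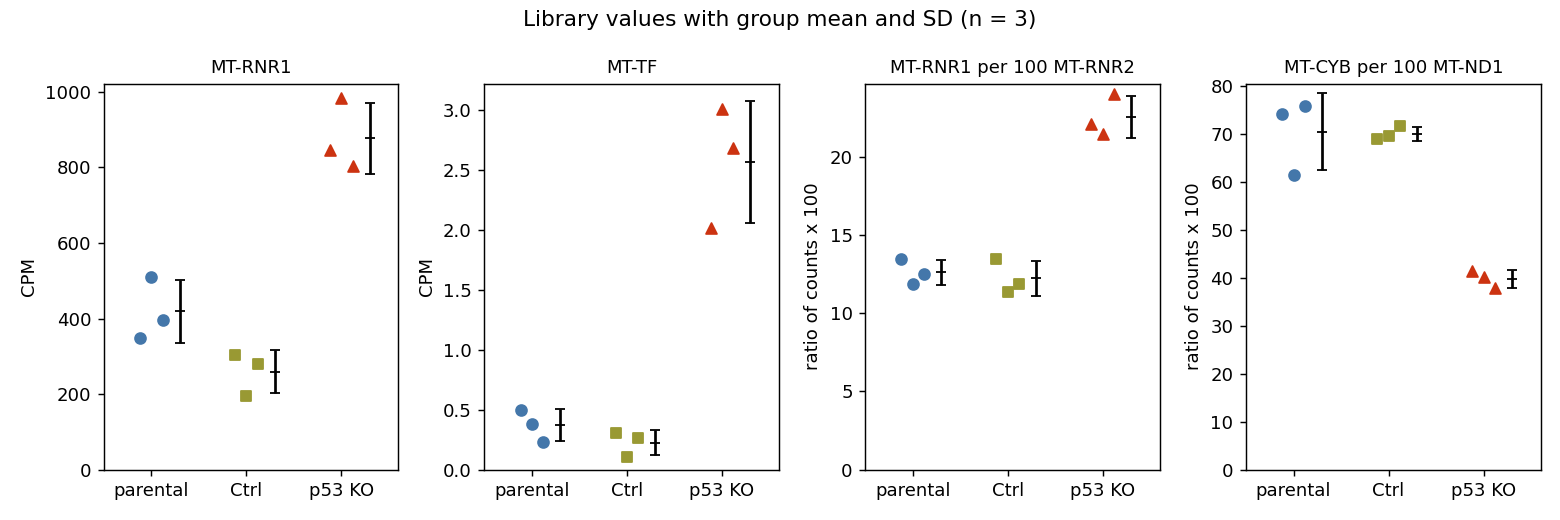
From left to right, CPM of MT-RNR1 and of MT-TF, counts of MT-RNR1 per 100 counts of MT-RNR2, and counts of MT-CYB per 100 counts of MT-ND1, in each library (points), with the group mean and SD (bars, n = 3). In each panel the 3 p53 KO libraries lie apart from the 6 control libraries, above them in the first 3 panels and below them in the last.

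MT-TV, MT-RNR2 and MT-TL1 follow MT-RNR1 on the same strand, at chrM:1602-1670, chrM:1671-3229 and chrM:3230-3304. MT-TV encodes the tRNA for valine, which also serves as a structural part of the mitochondrial ribosome. It had 2.45, 4.62 and 2.68 CPM in the parental libraries, 2.09, 1.23 and 1.83 CPM in the Ctrl libraries and 3.35, 5.06 and 2.33 CPM in the p53 KO libraries. The log2 fold change of p53 KO against Ctrl cells was 1.10 (SE 0.33, adjusted p = 0.0287), against parental cells it was 0.15 (SE 0.30, adjusted p = 0.768), and the p53 KO libraries overlapped with the parental ones. The tRNA gene is shown, with its anticodon in capitals, because it lies between the rRNA genes, and its proportion to the first of them was lower in p53 KO libraries.
MT-TV: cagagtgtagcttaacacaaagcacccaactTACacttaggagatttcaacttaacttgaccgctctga

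Per 1000 counts of MT-RNR1, MT-TV had 2.90 to 5.15 counts in p53 KO libraries and 6.28 to 9.04 in the controls. Per 1000 counts of MT-RNR2, the 3 groups overlapped, between 0.698 and 1.10 counts. MT-RNR2 itself had 2596, 4312 and 3169 CPM in the parental libraries, 2249, 1722 and 2363 CPM in the Ctrl libraries and 3821, 4579 and 3343 CPM in the p53 KO libraries. It was higher in p53 KO than in Ctrl cells at 0.89 (SE 0.18, adjusted p = 0.00386), with no overlap of libraries, and was 0.22 (SE 0.18, adjusted p = 0.441) against parental cells, with overlap. In Ctrl against parental cells it was -0.67 (SE 0.18, adjusted p = 0.0274).

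MT-TL1, a tRNA for leucine, is the most abundant of the tRNAs in the counts, with 7.0, 10.7 and 5.58 CPM in the parental libraries, 3.31, 1.86 and 4.61 CPM in the Ctrl libraries and 5.37, 10.5 and 4.71 CPM in the p53 KO libraries. Its log2 fold change was 1.09 (SE 0.38, adjusted p = 0.0538) for p53 KO against Ctrl and -1.27 (SE 0.38, adjusted p = 0.0381) for Ctrl against parental cells. MT-TT, the tRNA for threonine at the other end of the gene array, had 2.59 ± 0.493, 2.08 ± 0.600 and 2.19 ± 0.773 CPM in parental, Ctrl and p53 KO cells, and was not called in any of the 3 comparisons.

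None of the 13 mRNAs was called by edgeR in p53 KO against parental cells, where 2 had an unadjusted p under 0.05 (MT-CO3 and MT-CYB) and DESeq2 called MT-CO3. Their median log2 fold change was -0.47, with a range from -0.75 to 0.20. In p53 KO against Ctrl cells the median was 0.60, and edgeR called MT-ND1 and MT-CO1 and DESeq2 only MT-CO1. In Ctrl against parental cells the median was -0.95, all 13 had a negative log2 fold change, and 5 were called by edgeR and 2 by DESeq2, MT-CO1 and MT-CO3. Of all 14513 genes, DESeq2 called 2964, 4446 and 3459 in these comparisons, in the same order.

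MT-ND1, a core subunit of complex I in its membrane arm, had 819, 1953 and 884 CPM in the parental libraries, 733, 475 and 659.5 CPM in the Ctrl libraries and 1037, 1666 and 992 CPM in the p53 KO libraries. Parental replicate 2 and p53 KO replicate 2 stood above the rest. The log2 fold change of p53 KO against Ctrl cells was 0.99 (SE 0.32, adjusted p = 0.0392), and all p53 KO libraries lay above all Ctrl libraries. Against parental cells it was 0.02 (SE 0.32, adjusted p = 0.978).

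Among the other complex I subunits, MT-ND4 had 1379, 3257 and 1443 CPM in the parental libraries, 1097, 696 and 1027 CPM in the Ctrl libraries and 1275, 2192 and 1024 CPM in the p53 KO libraries. Ctrl libraries lay below all parental libraries, at a log2 fold change of -1.11 (SE 0.35, adjusted p = 0.0482). MT-ND4L, whose gene overlaps that of MT-ND4, had 222, 579 and 231 CPM in the parental libraries, 117, 119 and 177 CPM in the Ctrl libraries and 217, 375 and 143 CPM in the p53 KO libraries and was likewise lower in Ctrl than in parental cells, at -1.32 (SE 0.40, adjusted p = 0.0415). MT-ND5, the most variable of the parental mRNAs, had 415, 1123 and 437 CPM in the parental libraries, 302, 279.8 and 380.5 CPM in the Ctrl libraries and 356, 671 and 247 CPM in the p53 KO libraries, and the log2 fold change of p53 KO cells was -0.63 (SE 0.40, adjusted p = 0.312) with parental and 0.40 with Ctrl cells as the reference, beside -1.04 in Ctrl against parental cells. MT-ND2 was at 535 ± 307, 339.9 ± 77.4 and 525 ± 160.5 CPM and MT-ND3 at 168 ± 51.2, 126 ± 39.3 and 122 ± 29.7 CPM in parental, Ctrl and p53 KO cells (SD, n = 3), and neither was called. MT-ND6 had 5.81, 9.46 and 5.86 CPM in the parental libraries, 5.66, 3.23 and 7.21 CPM in the Ctrl libraries and 5.74, 14.3 and 4.12 CPM in the p53 KO libraries, with its highest value in p53 KO replicate 2, and was not called.

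MT-CYB, cytochrome b of complex III, had 608, 1199 and 672 CPM in the parental libraries, 505, 330.4 and 473 CPM in the Ctrl libraries and 430.4, 671 and 375 CPM in the p53 KO libraries. Its log2 fold change was -0.75 (SE 0.28, adjusted p = 0.0888) for p53 KO against parental and 0.17 (SE 0.28, adjusted p = 0.683) for p53 KO against Ctrl cells, and it was lower in Ctrl than in parental cells at -0.92 (SE 0.28, adjusted p = 0.0397). Of complex IV, MT-CO1 had 2722, 5324 and 3274 CPM in the parental libraries, 2089, 1585 and 2093 CPM in the Ctrl libraries and 3077, 4085 and 2459 CPM in the p53 KO libraries, and was higher in p53 KO than in Ctrl cells at 0.74 (SE 0.24, adjusted p = 0.0400) and lower in Ctrl than in parental cells at -0.97 (SE 0.24, adjusted p = 0.0184). MT-CO3 had 2372, 3407 and 2508 CPM in the parental libraries, 1865, 1179 and 1769.8 CPM in the Ctrl libraries and 1682, 2194 and 1595 CPM in the p53 KO libraries. Each p53 KO library was below each parental library, and the log2 fold change was -0.60 (SE 0.19, adjusted p = 0.0506), just above the threshold. Against Ctrl cells it was 0.18 (SE 0.19, adjusted p = 0.510), and in Ctrl against parental cells MT-CO3 was lower at -0.78 (SE 0.19, adjusted p = 0.0165). MT-CO2 was at 1632 ± 553, 1025 ± 334 and 1176 ± 261 CPM in parental, Ctrl and p53 KO cells and was not called.

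MT-ATP6 and MT-ATP8 encode subunits of the membrane part of ATP synthase and are read from 1 mRNA with overlapping reading frames. MT-ATP6 was at 953 ± 471, 494 ± 108 and 667 ± 258 CPM and MT-ATP8 at 206 ± 108, 99.5 ± 21.7 and 151 ± 72.4 CPM in parental, Ctrl and p53 KO cells, and neither was called. MT-ATP8 had between 17.1 and 24.2 counts per 100 of MT-ATP6, and the groups overlapped. The genes share 46 bases, and MT-ND4L and MT-ND4 share 7. The overlaps are shown in capitals with 10 bases on each side, at chrM:8517-8582 and chrM:10750-10776 on the plus strand of GRCh38, because a read there fits both genes.
MT-ATP8/MT-ATP6: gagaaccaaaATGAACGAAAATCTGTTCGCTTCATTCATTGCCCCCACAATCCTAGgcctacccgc
MT-ND4L/MT-ND4: acctactccaATGCTAAaactaatcgt

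The calls of lower levels in Ctrl than in parental cells rested on parental replicate 2. Without it, none of the 19 genes was called by edgeR, where 6 had an unadjusted p under 0.05. Calls over all genes fell there too, from 2943 to 1556. All 13 mRNAs kept a negative log2 fold change, between -0.72 and -0.09, with a median of -0.47 in place of -0.95. With all libraries, DESeq2 called 6 genes lower, beside 1691 called lower of all 14513 genes. Without Ctrl replicate 2, 2 genes were called lower, MT-RNR1 and MT-CO3, beside 955 of all 14751 genes tested. Of the 19 genes, 13 had all Ctrl libraries below all parental libraries, which held for 21.7% of all genes tested. The higher mRNA levels in p53 KO than in Ctrl cells rested on p53 KO replicate 2: without it their median log2 fold change was 0.07 in place of 0.60, and the genes called were MT-TF, MT-RNR1 and MT-RNR2. Without Ctrl replicate 2 that median was 0.33 and the same 3 genes were called. Of all genes, 3100 and 3572 were called in these fits, in place of 4240. No mRNA was called in that comparison without p53 KO replicate 1 or Ctrl replicate 3 either, with medians of 0.73 and 0.66. There, 3188 and 4515 of all genes were called. Against parental cells, the median of the mRNAs was 0.07 without parental replicate 2 and -0.75 without p53 KO replicate 2. In the latter case MT-CO3 and MT-CYB were called lower, beside 775 of all 14745 genes tested. MT-RNR1 was called higher against both controls in each fit that lacked 1 library. MT-TF was called there too, but it passed the filter only through the p53 KO libraries, so its calls are no support. Over the fits that each lacked 1 library, the log2 fold change of MT-RNR1 ranged from 0.95 to 1.23 against parental and from 1.59 to 1.88 against Ctrl cells, and that of MT-TF from 2.52 to 3.00 and from 3.14 to 3.76.

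Replicates of the same group differed more in mitochondrial mRNAs than in most other genes. The coefficient of variation (SD over mean of CPM, 3 libraries) of the 13 mRNAs had a median of 49.5% in parental cells, with a range from 20.4% to 61.1%, against 5.93% over all genes tested and 3.26% over the 2361 genes of at least 100 CPM. In p53 KO cells the median was 32.0%, from 17.7% to 68.1%, against 8.44% and 5.45%. In Ctrl cells it was 22.8%, from 15.2% to 37.3%, against 13.9% and 10.3%. Within parental cells, the highest library exceeded the lowest by 1.44 times for MT-CO3 and by 2.71 times for MT-ND5. The rRNAs varied less than the median mRNA in each group, at 19.8%, 21.8% and 10.7% for MT-RNR1 and 26.0%, 16.2% and 15.9% for MT-RNR2 in parental, Ctrl and p53 KO cells.

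When each gene was expressed per 100 counts on mitochondrial mRNAs, the spread of MT-CYB within groups became small. It then had 5.51, 5.44 and 5.49 in the parental libraries, 5.44, 5.40 and 5.37 in the Ctrl libraries and 4.19, 4.36 and 4.16 in the p53 KO libraries. The 6 control libraries spanned 5.37 to 5.51, and the p53 KO libraries lay below at 4.16 to 4.36. MT-ND1 had 7.42, 8.85 and 7.23 in the parental libraries, 7.89, 7.75 and 7.49 in the Ctrl libraries and 10.1, 10.8 and 11.0 in the p53 KO libraries, and the p53 KO libraries lay above all controls. MT-RNR2 had 23.5, 19.5 and 25.9 in the parental libraries, 24.2, 28.1 and 26.8 in the Ctrl libraries and 37.2, 29.7 and 37.1 in the p53 KO libraries, and MT-RNR1 had 3.17, 2.32 and 3.24 in the parental libraries, 3.26, 3.20 and 3.18 in the Ctrl libraries and 8.22, 6.38 and 8.90 in the p53 KO libraries, again with the p53 KO libraries above all controls. Of the 15 mRNAs and rRNAs, these 4 had p53 KO libraries outside the range of all control libraries on this scale, as did 2.49% of all genes tested. The mitochondrial mRNAs took between 0.620% and 2.22% of the counts of a library, and this scale carries that spread into every nuclear gene. The 2.49% is therefore no fair background for the 4 genes. In CPM, 1 of the 15 lay outside that range, MT-RNR1, beside 22% of all genes. Parental replicate 2, the library with the highest mitochondrial share, was within the range of the other control libraries for MT-CYB and had the lowest MT-RNR1 value, 2.32.

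These proportions varied along the genome. Between p53 KO and parental cells, the log2 ratio of the mean proportion was 1.43 for MT-RNR1, 0.59 for MT-RNR2, 0.44 for MT-ND1, 0.42 for MT-ND2 and 0.15 for MT-CO1, and it was negative for each of the genes from MT-CO2 to MT-ND5, between -0.25 and -0.04, and -0.37 for MT-CYB, the last mRNA of the heavy strand. From MT-CO2 to MT-ND5 the p53 KO and parental libraries overlapped for every gene. With Ctrl cells as the reference the ratio was positive for MT-ATP8 (0.0270), MT-ND4L (0.23) and MT-ND4 (0.12) and negative for the other genes of that stretch, and MT-CO3 and MT-ND3 had all p53 KO libraries below all Ctrl libraries. Over the 14 genes of that strand, Spearman's rho of this ratio with the start position was -0.83 and Pearson's r was -0.88. For p53 KO against Ctrl cells they were -0.65 and -0.76, and for Ctrl against parental cells -0.41 and -0.35. The genes come from the same libraries and long precursor RNAs, and the proportions of the mRNAs sum to a fixed total, so these values are a description. MT-CYB had 74.3, 61.4 and 76.0 counts per 100 counts of MT-ND1 in parental, 68.9, 69.6 and 71.7 in Ctrl and 41.5, 40.3 and 37.8 in p53 KO libraries. When libraries were scaled to their mitochondrial mRNA counts and tested by edgeR, MT-RNR1 was again called against both controls. MT-TF was called too, but it passed the filter only through the p53 KO libraries. No other mitochondrial gene was called in the p53 KO comparisons under that scaling, where none had an unadjusted p under 0.05. Calls over all genes fell there from 2631 to 343 against parental and from 4240 to 855 against Ctrl cells, so a missing call does not show equal proportions. In Ctrl against parental cells they rose from 2943 to 4182. That scaling shifted the median of all genes tested to 0.34 in p53 KO against parental cells, to -0.49 when p53 KO and Ctrl cells were compared, and to 0.83 in Ctrl against parental cells, as log2 fold changes.

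**Figure D5:**
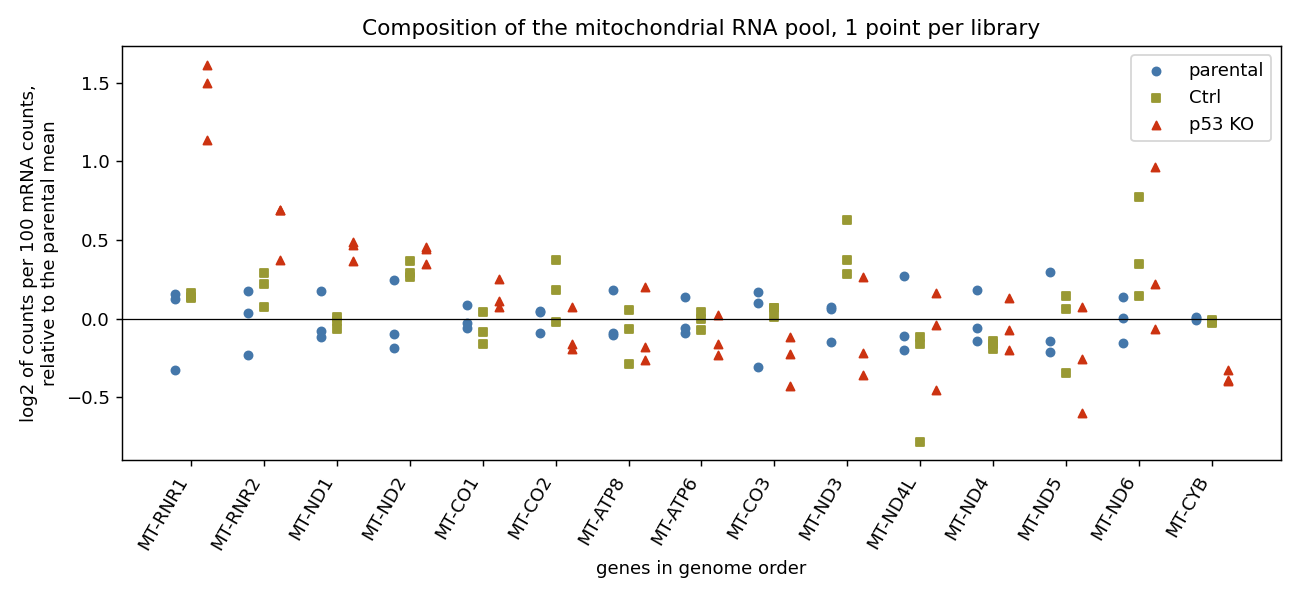
Counts of each mRNA and rRNA per 100 mitochondrial mRNA counts, as log2 relative to the parental mean, in genome order, with 1 point per library (blue circles, parental; olive squares, Ctrl; red triangles, p53 KO). The p53 KO libraries lie above all controls at MT-RNR1, MT-RNR2 and MT-ND1 and below them at MT-CYB.

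The other 18 tRNAs did not pass the filter on low counts. Without it, 15 of them were tested by edgeR and none was called in any of the 3 comparisons. MT-TN, MT-TR and MT-TS2 had 0 counts in all libraries, which allows up to 3 counts in each. MT-TI, the tRNA for isoleucine, reached 21 counts in parental replicate 2 and 2 to 14 in the others. MT-TQ and MT-TM, for glutamine and methionine, each reached 11, and the remaining tRNAs held at most 8 counts in any library. For these 18 tRNAs a difference between groups was not detectable at this depth. MT-TQ and the other tRNAs of the light strand lie opposite to heavy-strand transcripts, and the libraries were strand-specific, but whether the counting used strand is not given in the sources used here.

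Copies of mitochondrial DNA in the nuclear genome can share reads with the mitochondrial genes. Of all 75-base windows of chrM in GRCh38, 2383 of 16495 had an exact copy elsewhere in that genome. The share of windows touching a gene was 13.1% for MT-TF, 28.4% for MT-RNR1, 3.98% for MT-RNR2, 19.4% for MT-ND1 and 41.8% for MT-CO1, and it was 0 for MT-TL1, MT-ND3, MT-ND4L, MT-ND4, MT-CYB and MT-TT, so values of the former are uncertain. MT-TN had copies of 100% of its windows, beside its 0 counts. Of 386 nuclear pseudogenes of mitochondrial genes, 37 had counts. MTATP6P1 held the most, with 24.6 to 26.6 counts per 100 of MT-ATP6 in all 9 libraries. MTND2P28 and MTCO1P12 followed, with at most 1458 and 103 counts. The log2 fold change of MTATP6P1 was -0.51 (SE 0.32, adjusted p = 0.303) for p53 KO against parental, 0.42 (SE 0.32, adjusted p = 0.367) for p53 KO against Ctrl and -0.93 (SE 0.32, adjusted p = 0.0634) for Ctrl against parental cells.

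Mitochondrial transcription and replication genes of the nucleus were called higher in 5 of 16 and lower in 2 of 16 in p53 KO against parental cells, and higher in 4 and lower in 4 against Ctrl cells. Over all genes tested, 9.77% were called higher and 8.36% lower against parental cells, 15% higher and 14.2% lower against Ctrl cells, and 6.46% higher and 5.25% lower against both. The 16 genes had median log2 fold changes of 0.09 and 0.03, and 4 were higher and 2 lower against both. Only the 4 higher are named here, as those with the largest mean size of change, so the names do not show the 2 lower. TFAM, which packages mitochondrial DNA and activates its transcription, was at 123 ± 5.11 CPM in parental cells, 100.4 ± 10.4 in Ctrl cells and 171 ± 5.84 in p53 KO cells, with log2 fold changes of 0.47 (SE 0.08, adjusted p = 0.00253) and 0.77 (SE 0.08, adjusted p = 5.84e-05) against parental and Ctrl cells. TFB1M, which dimethylates the 12S rRNA, rose by 0.58 and 0.54 on the log2 scale. TWNK, the replicative helicase, rose by 0.46 and 0.41, and MTERF1, which binds within MT-TL1 downstream of the rRNA genes, by 0.34 and 0.49.

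Of 30 genes of mitochondrial RNA processing and decay, 4 were called against parental cells, all higher, and 8 higher and 3 lower against Ctrl cells, with medians of 0.08 and 0.17. The 4 higher against parental cells stand beside 9.77% of all genes, and the 8 higher and 3 lower against Ctrl cells beside 15% and 14.2%. The 4 called higher against both were SUPV3L1, a helicase of the RNA-degrading complex, at 0.55 and 0.55, PTCD1 at 0.59 and 0.48, MRM2, which methylates the 16S rRNA, at 0.46 and 0.42, and ELAC2, which cuts the 3′ ends of tRNAs, at 0.27 and 0.37, as log2 fold changes against parental and Ctrl cells, where 6.46% of all genes were higher against both. Mitochondrial ribosomal proteins were called higher in 11 and lower in 1 of 78 against parental, and higher in 6 and lower in 8 against Ctrl cells, with medians of 0.19 and 0.01. Of all genes, 9.77% were called higher and 8.36% lower against parental cells, and 15% and 14.2% against Ctrl cells. Against both controls, 4 of the 78 were called higher and 1 lower, where 6.46% and 5.25% of all genes were. Of these, MRPS16, MRPL18 and MRPL43 rose by between 0.41 and 0.67 on the log2 scale, and MRPL15 fell, at -0.28 and -0.59.

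Of the nuclear genes named here for higher levels against both controls, 6 (TFAM, TWNK, SUPV3L1, COX15, MRPS16 and MRPL43) lie on chromosome 10. The 583 genes tested there had a median log2 fold change of 0.37 in p53 KO against parental and 0.42 in p53 KO against Ctrl cells, beside 0.01 over all genes. The part of this shift in those results was not tested.

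Nuclear genes of the respiratory complexes were called most often in Ctrl against parental cells. Of 37 complex I genes, 15 were called higher there, with a median log2 fold change of 0.34, beside a median of 0.15 for p53 KO against parental cells. In Ctrl against parental cells, 10.6% of all genes were called higher. With Ctrl cells as the reference, p53 KO cells had 1 of these genes called higher and 6 lower, with a median of -0.16, where 15% and 14.2% of all genes were. Complex III had 4 of 9, complex IV 9 of 16 and ATP synthase 7 of 16 called higher in Ctrl than in parental cells, with medians of 0.35, 0.42 and 0.34, where the mitochondrially encoded mRNAs of the same complexes had negative log2 fold changes. NDUFB4 of complex I had a log2 fold change of 0.67 (SE 0.15, adjusted p = 0.00998) in Ctrl against parental and -0.78 in p53 KO against Ctrl cells, and NDUFB2 had 0.57 and -0.77. UQCR10 of complex III was at 0.49 and -0.43. Of the ATP synthase genes, ATP5F1D was higher in Ctrl than in parental cells, at 0.59, and ATP5MF was higher in p53 KO than in parental cells, at 0.54. Ctrl replicate 1 was the highest Ctrl library for NDUFB4, NDUFB2, UQCR10 and ATP5F1D, at 161, 24.3, 127 and 132 CPM. Ctrl replicates 2 and 3 had 98.2 and 116, 15.9 and 18.2, 87.9 and 90.4, and 93.5 and 86.4 CPM, above all parental libraries. Of complex IV, COX15, needed to make its heme, was called higher in p53 KO cells against both controls at 0.59 and 0.58. Complex II, with no mitochondrially encoded subunit, had 1 of 4 called higher in Ctrl and in p53 KO against parental cells, SDHB, at 0.33 and 0.33.

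PPARGC1A, a coactivator that promotes mitochondrial gene expression, was at 181 ± 4.58 CPM in parental cells, 87.0 ± 19.5 in Ctrl cells and 156 ± 13.4 in p53 KO cells. It was lower in Ctrl than in parental cells, at -1.05 (SE 0.14, adjusted p = 0.000571), and higher in p53 KO than in Ctrl cells, at 0.84 (SE 0.14, adjusted p = 0.000985). Of the 7 biogenesis regulators tested, 1 was called higher in p53 KO than in parental cells, ESRRA at 0.34, and 2 were called higher against Ctrl cells, beside 9.77% and 15% of all genes. Of 13 mitochondrial and integrated stress response genes, 4 were called higher against parental cells and 2 higher and 5 lower against Ctrl cells, where 9.77%, 15% and 14.2% of all genes were called in these directions. HSPD1, the mitochondrial chaperonin, was higher against both, at 0.18 and 0.36.

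RNAs listed as lacking a poly(A) tail, mostly from histone genes with symbols starting HIST1H or HIST2H, were summed. Whether each lacked a tail here was not tested, so the sum does not measure how poly(A) selection went. The listed RNAs held 259.5 to 296 CPM in parental, 499.8 to 614 in Ctrl and 274 to 316 in p53 KO libraries. Of the 30 tested, 16 were called higher in Ctrl than in parental cells, 15 were called lower in p53 KO than in Ctrl cells, and 2 were called lower in p53 KO than in parental cells. Over all genes, 10.6%, 14.2% and 8.36% were called in these directions. HIST1H2AG had -0.51 and HIST2H2BE -0.45 in the last comparison. RN7SL2, a tail-less RNA of the signal recognition particle, had 81, 24 and 14 counts in p53 KO and 6 to 17 in the control libraries, with a log2 fold change of 1.58 (SE 0.54, adjusted p = 0.0659) against parental and 1.79 (SE 0.55, adjusted p = 0.0321) against Ctrl cells, while RN7SK, RN7SL1 and RMRP were at 0. The part of RNA selection in the values of MT-RNR1 and MT-TF was not tested.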

How the data were processed

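Strand-specific, paired-end poly(A) libraries of 75 bp reads were made from parental, Ctrl and p53 KO cells of the A431 line, 3 per group. The authors checked reads with FastQC, aligned them with STAR 2.5.1b to GRCh38, summarised them with featureCounts over the genes of Ensembl release 85 and deposited raw counts without normalization. The featureCounts settings for strand, reads with several alignments and overlapping genes are not given in the sources used here. Library totals ranged from 19783778 to 29840452 counts, and 30587 of 58051 genes had no count. All columns were matched to libraries by name.

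The counts were tested with edgeR 4.0.16 in R 4.3.3. Genes were filtered by filterByExpr by group at a minimum count of 10, which left 14513, and scaled by TMM. The 9 libraries entered a single fit with a mean for each group, and contrasts were taken by the quasi-likelihood test with Benjamini-Hochberg adjustment, calling genes at an adjusted p of at most 0.05 as in the study's methods. Standard errors follow from the F statistic. The scripts were tested on simulated data. CPM are counts per 1000000 of normalised library size, and per kb they are divided by gene length in GENCODE release 44. Sequences and exact 75-base copies were read from GRCh38.

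The members and gene lists were chosen with earlier results of these data known. Library values are given for the mRNAs and rRNAs the results turn on (the most and least abundant, those called and MT-ND6), for called tRNAs, and for up to 4 members of each list with the largest change among those called against both controls (if none, up to 2 called in any comparison). Alternatives were DESeq2 1.42.0, its size factors, other scalings and filters, a log2 fold change beyond 1.5, a block for the replicate number, fits to only the 2 groups compared, and each library left out in turn. The block with scaling to mitochondrial mRNA counts was added after seeing the data. Figures were drawn with matplotlib 3.10.9. The level of the targeted gene is not reported here.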

Additional observations from a re-analysis of the deposited data

Results flagged for a closer look

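MT-RNR1 differed in opposite directions in the lines derived from parental cells: its log2 fold change against parental cells was 1.07 in p53 KO and -0.69 in Ctrl cells, and each passed the test. The difference between the lines, tested directly as p53 KO against Ctrl cells, was 1.76 on the log2 scale (adjusted p = 3.43e-05, edgeR's quasi-likelihood test), and all p53 KO libraries were above and all Ctrl libraries below the parental libraries. The call in Ctrl against parental cells rested on parental replicate 2: without it the log2 fold change was -0.53 (adjusted p = 0.0694, edgeR). It was also lost with the replicate block, and the sign changed with libraries scaled to their mitochondrial mRNA counts, at 0.14. In proportion to MT-RNR2, parental and Ctrl libraries overlapped at 11.4 to 13.5 counts per 100, and p53 KO libraries had 21.4 to 24.0.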

How the results depend on the processing

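MT-TF and MT-RNR1 were called higher in p53 KO cells against both controls in all fits but 3. Where MT-TF passed the filter only through the p53 KO libraries, its calls are no support. With at least 10 counts in every library MT-TF was not tested and 1 gene was left, MT-RNR1. With a log2 fold change also beyond 1.5, 1 was left, MT-TF. With the replicate block and scaling to mitochondrial mRNA counts, chosen after seeing the data, 1 was left, MT-TF, and MT-RNR1 had an adjusted p of 0.0889 against parental and 0.105 against Ctrl cells (edgeR). The replicate numbers did not pair the libraries: deviations of same-numbered libraries correlated between -0.348 and 0.0409 across genes. With the replicate block, 2 mitochondrial genes were called for p53 KO against parental cells and 4, no mRNA, for p53 KO against Ctrl cells. For Ctrl against parental cells 2 were called, MT-CO1 and MT-CO3, with MT-RNR1 at an adjusted p of 0.0531 (edgeR). Of all genes, 1757, 3406 and 1691 were called in these comparisons, in the same order.

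The number of mitochondrial genes called was otherwise sensitive to the setting. For p53 KO against parental cells it was 13 without a filter (3 higher, 10 lower), 1 with at least 10 counts in every library, 4 with only the 2 groups compared, 1 beyond 1.5, 1 with the block and mRNA scaling, and 2 to 4 with each library left out in turn. For p53 KO against Ctrl cells it was 14 without a filter, 2 with mRNA scaling, 2 beyond 1.5, 1 with block and mRNA scaling, and 3 to 7 with libraries left out. It was 3 there without p53 KO replicate 1, p53 KO replicate 2 or Ctrl replicate 2, where 3188, 3100 and 3572 of all genes were called. For Ctrl against parental cells it was 16 without a filter, 5 with only the 2 groups compared, and 0 to 12 with libraries left out: 0 without parental replicate 2, 2 without Ctrl replicate 2, 4 without p53 KO replicate 1, 5 without parental replicate 3 and 12 without Ctrl replicate 1. Of all genes, 1556, 2015, 2353, 1591 and 3054 were called in these left-out fits, in the same order. The number of mitochondrial genes was 0 in edgeR beyond 1.5, with mRNA scaling and with the block and mRNA scaling, where 14, 0 and 0 genes had an unadjusted p under 0.05. Under these last 2 scalings the log2 fold change changed sign for MT-RNR1 (0.14 and 0.16), MT-RNR2 (0.20 and 0.21) and MT-CO3 (0.0496 and 0.0637). MT-CO3 was called lower in p53 KO than in parental cells in 10 of 20 alternatives and MT-CYB in 4. Without a filter, 34 mitochondrial genes were tested. Of all 27464 genes tested there, 3370 were called for p53 KO against parental, 4772 for p53 KO against Ctrl and 4205 for Ctrl against parental cells.

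Over all genes, p53 KO against parental cells gave 343 with mRNA scaling, 4831 with only the 2 groups compared, 283 beyond 1.5, 261 with the block and mRNA scaling, and 1568 to 4944 with libraries left out. The comparison of p53 KO and Ctrl cells gave 855 with mRNA scaling, 477 beyond 1.5, 542 with the block and mRNA scaling, and 3100 to 5162 with libraries left out. Ctrl against parental cells gave 1869 with only the 2 groups compared, 281 beyond 1.5, 981 with the block and mRNA scaling, and 1379 to 4375 with libraries left out. Counting only mRNAs lowers every mitochondrial share, and the mean was then 1.52% in parental cells, 0.812% in Ctrl cells and 1.15% in p53 KO cells. Among the single genes named, values stayed on the same side of the threshold in 994 cases, gained a call in 50, lost it in 86 and changed sign from a call in 6. The causes were not tested. Depth limits MT-TF, with 3 to 79 counts, and the 18 tRNAs under the filter.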
